A study of Arabidopsis thaliana with 42 samples.

Results

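The mitochondrial genome of Arabidopsis thaliana is represented in the deposited table of normalized counts by 122 loci, out of 27655 genes in all. They were chosen by their transcript identifier, which starts with ATMG, and each has 1 transcript. The study followed RNA in whole 10-day-old seedlings held at 44 °C in the light, in liquid medium. The mutant, called upf here as in the labels, carries upf3-1 together with upf1-5 in the Columbia-0 background and per the labels lacks full nonsense-mediated decay (NMD), which in the cytosol clears messages whose reading frame ends too soon. Samples of it were taken at 0 min, just before heating, and at 15, 30, 45 and 90 min. A second set was wild type (WT) heated for 15 to 90 min with cycloheximide (CHX), which blocks cytosolic ribosomes, at a dose the labels give as 10 µg/L, a unit not checked here. WT Columbia-0 seedlings without CHX were sampled at all 5 times. Each of the 14 groups has 3 libraries, which the series text calls biological replicates, each from several plants. No group was left unheated in CHX or after 0 min, so an effect of heat cannot be told apart from one of the time since 0 min.

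Plant mitochondria keep a small genome. It encodes some subunits of the respiratory chain and of ATP synthase, part of the machinery that attaches haem to cytochrome c, some ribosomal proteins, and many reading frames of unknown role. All other mitochondrial proteins come from the nucleus, including the RNA polymerase and most of the factors that cut, splice and edit mitochondrial transcripts. Poly(A) tails on plant mitochondrial RNA are short-lived and mark it for decay, whereas on cytosolic messenger RNA they protect it. Libraries were of stranded mRNA, and the sources used here do not say how mRNA was selected. A value below is therefore the part of a mitochondrial RNA that reached the library: more RNA and a larger part carried through selection cannot be told apart. In bulk seedlings, fewer mitochondria or cells and less RNA in each cannot be told apart either.

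A second limit lies in the nuclear genome. Chromosome 2 of the Columbia-0 reference carries an insertion of mitochondrial DNA. In the RefSeq copy of TAIR10.1 it spanned chr2:3239038-3509765, 270728 bases, of which 99.6% matched the mitochondrial record at 99.9% identity, and it covered 72.6% of that record. Names for the mitochondrial loci were taken from the notes on these nuclear copies, which mention 53 of the 122 and describe 24 as more than unknown. The other 98 are called here by their identifier, for some with a name from a gene list that the reference could not check. The sequences below show how little a read has to tell the 2 genomes apart. The first pair comes from the nuclear gene AT2G07698, a copy of the locus for subunit 1 of ATP synthase (annotated exon and coding sequence on the nuclear side, chr2:3361898-3361958, plus strand), and from MT:69168-69228, minus strand, ahead of the annotated atp1 reading frame. The capital marks the only base that differs over the whole nuclear gene.
AT2G07698 in the nucleus: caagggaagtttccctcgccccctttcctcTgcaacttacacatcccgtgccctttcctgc
the same stretch in the mitochondrial genome: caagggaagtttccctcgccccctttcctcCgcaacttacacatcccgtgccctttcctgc
The second pair is the first part of the apocytochrome b reading frame, at chr2:3450863-3450922 on the plus strand inside AT2G07727 and at MT:182799-182858 on the minus strand, with the start codon in capitals. All 1182 coding bases were found unbroken in AT2G07727.
apocytochrome b in AT2G07727: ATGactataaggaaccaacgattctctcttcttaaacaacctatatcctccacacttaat
apocytochrome b in the mitochondrial genome: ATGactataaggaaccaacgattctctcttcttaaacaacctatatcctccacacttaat

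The estimated number of reads per library was 20.4 to 75.9 M, with a median of 43.4 M, and normalized counts summed to 14.7 to 31.0 M per library. The targeted genes were lower in the mutant. UPF1 had 424.5 to 806.5 normalized counts in the 15 upf libraries and 1298 to 2616 in the 27 WT libraries, and UPF3 had 104 to 198 in the upf libraries and 460.5 to 1039 in the WT libraries. Shoot markers of the labelled seedlings were abundant, with the chlorophyll-binding protein gene LHCB1.3 at 171780 to 440418 in every library. Among root markers the beta-glucosidase gene PYK10 had 2360.5 to 40014.5, and WOX5, a gene of the root's stem cell niche, had 2 to 77.5. The 2 lanes of a library gave the same total for the mitochondrial loci to within 0.09 on the log2 scale.

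Transcripts of the mitochondrial genome were scarce before heat and abundant after 30 min of it, in both genotypes. Summed over all 122 loci, the upf libraries held 2487, 2063 and 2810 normalized counts at 0 min, 5005.5, 3974.5 and 4474 at 15 min, and 51524.5, 41101.5 and 40372 at 30 min. They held 77795.5, 69078 and 71609 at 45 min and 127902, 101694 and 96177.5 at 90 min. The jump fell between 15 and 30 min, and no library at 30 min or later came near an unheated one. WT libraries held 2809.5, 3295.5 and 2946.5 at 0 min, 5522.5, 5377.5 and 3998.5 at 15 min, and 61431.5, 41219 and 37102 at 30 min. They held 92976, 66973.5 and 67541 at 45 min and 94771.5, 87943.5 and 85314 at 90 min. At 90 min every upf library lay above every WT library, while at 0 min the groups met at 2810 in the highest upf library and 2809.5 in the lowest WT library. Against its own 0 min, the sum in upf stood at 1.83, 18.1, 29.7 and 44.3 times after 15, 30, 45 and 90 min. In WT it stood at 1.65, 15.4, 25.1 and 29.6 times.

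**Figure D1:**
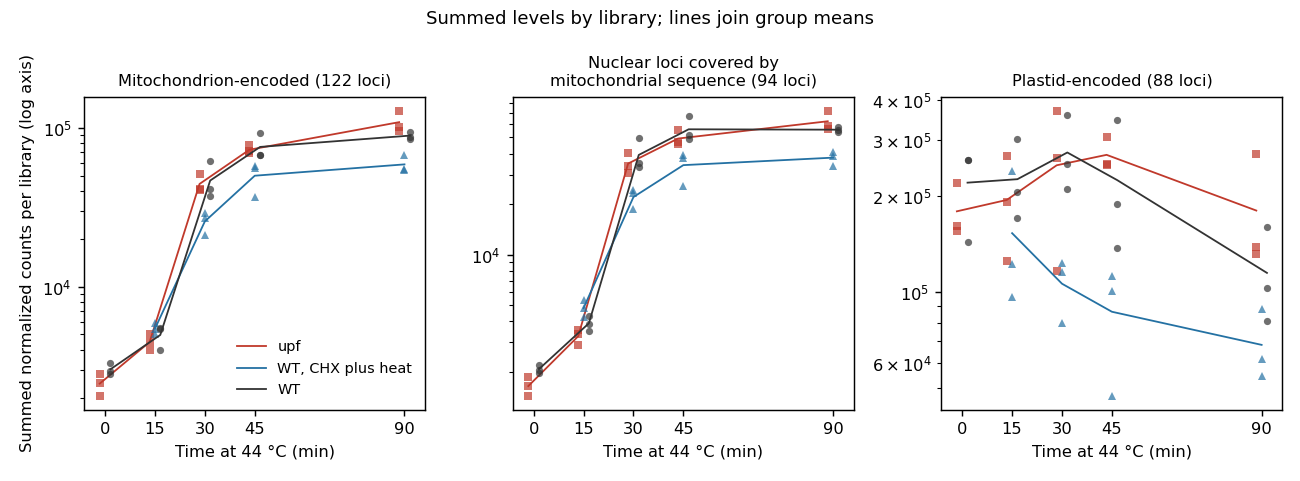
Normalized counts summed in each of the 42 libraries (points, log axes) against minutes at 44 °C, for upf, WT heated in CHX, and WT. Lines join the group means. The panels show the 122 mitochondrial loci, 94 nuclear loci covered by mitochondrial sequence (without AT2G07706) and the 88 plastid loci. The first 2 panels climb between 15 and 30 min in all 3 series, while plastid group means at 30 min stand at 1.39 times the 0 min value in upf, 0.482 in CHX and 1.24 in WT.

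As a share of all normalized counts, these RNAs made up 0.450% ± 0.0534 in upf at 90 min, against 0.0161% ± 0.00239 in upf at 0 min (SD, n = 3 each). In WT they made up 0.324% ± 0.0352 at 90 min, against 0.0187% ± 0.00122 at 0 min. RNA of the plastid genome, also made inside an organelle, moved far less. The sum over the 88 plastid loci stood at 1.09, 1.39, 1.50 and 1.01 times the 0 min value in upf after 15, 30, 45 and 90 min, and at 1.03, 1.24, 1.02 and 0.522 times in WT. Of 86 plastid loci tested, 20 were called higher in upf at 45 min and 8 higher and 5 lower at 90 min, and in WT 35 were called lower at 90 min, with no calls at the other heated times in either genotype (limma). One locus, ATMG00030, which the reference does not describe, weighed heavily in the mitochondrial sum. It held 24.3% of it in upf at 90 min, against 37.1% at 0 min, and 26.6% in WT at 90 min, against 34.5% at 0 min, values that are not corrected for length.

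Locus by locus, the rise was nearly general. In upf, all 3 libraries lay above all 3 unheated ones for 61, 101, 101 and 102 of the 122 loci after 15, 30, 45 and 90 min, and in WT for 45, 103, 102 and 103. By the same measure, without a test, 14.8, 20.3, 23.0 and 22.4% of all 27655 genes lay higher in upf, and 16.2, 21.9, 23.3 and 25.0% in WT. No mitochondrial locus lay lower throughout in upf, against 18.2, 26.8, 29.9 and 29.8% of all genes. In WT 2 did at each time, against 21.9, 28.7, 30.0 and 32.3%. They were ATMG00440 and ATMG01140, at 1, 0.5 and 0.5 at 0 min and 0 in every WT library heated without CHX. Over the whole table of 20747 tested genes, limma called 8.03, 10.7, 11.4 and 11.0% higher in upf at these times, and 8.92, 11.5, 12.7 and 12.2% in WT (a call needs a fold of 2 or more and an adjusted p below 0.05, on the log2(value + 1) scale, where changes of low genes come out too small). Of the 122 loci 107 reached 10 normalized counts in at least 3 libraries and were tested. Most of them, 69, passed only through heated libraries and so had to differ from 0 min, which leaves 38 that passed on the 6 unheated libraries alone. Of the loci described below, ATMG00270, ATMG00280, ATMG00290, ATMG00480, ATMG00630, ATMG00820, ATMG00900, ATMG00940, ATMG00990, ATMG01080, ATMG01110, ATMG01275 and ATMG01280 are among the 69, and their values against 0 min are a description with no test. All 38 rose at 30, 45 and 90 min in each genotype, against 15 in upf and 13 in WT at 15 min. Their median log2 change in upf was 0.86, 4.42, 5.00 and 5.44 after 15, 30, 45 and 90 min. In WT it was 0.79, 4.00, 4.73 and 4.84, where the median of all tested genes lay between -0.06 and -0.14. The calls over the 107, which the filter favours, were 35, 103, 102 and 102 higher in upf and 29, 104, 104 and 102 in WT. With a pseudocount of 10 the counts at 15 min were 12 in upf and 10 in WT. None of the 107 was called lower in these 8 comparisons, in which 4.65, 13.7, 17.7 and 20.1% of all genes in upf and 5.27, 16.8, 20.8 and 23.6% in WT were.

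**Figure D2:**
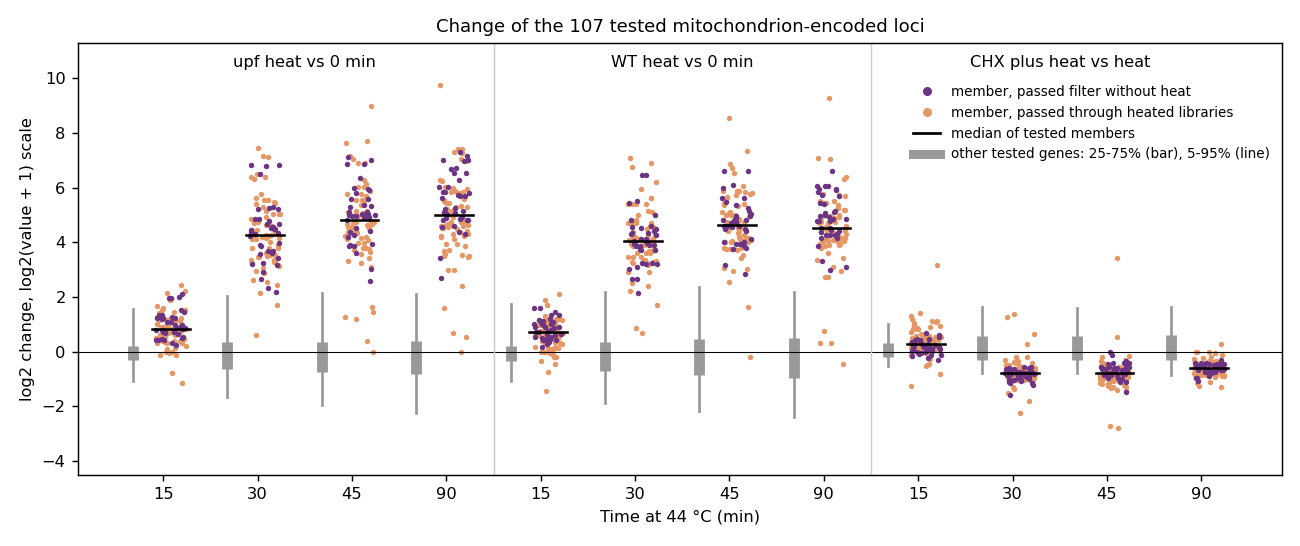
Log2 change of each of the 107 tested mitochondrial loci (points, dark where the locus passed the filter without heat, with the median as a black line) beside all other tested genes (grey, bar from the 25th to the 75th percentile and line from the 5th to the 95th), by time at 44 °C, for upf heat and WT heat against 0 min and for CHX plus heat against heat. From 30 min on most of the loci stand above the other genes, with medians of 4.25 in upf and 4.04 in WT at 30 min, and the medians of CHX against heat lie below 0 at 30, 45 and 90 min.

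Scaling moves the frame but not the direction. When libraries were set to equal totals, the median of all genes in WT at 90 min was -0.91, and the median of the tested mitochondrial loci was 4.00. In the authors' deposited table of comparisons, which gives values for 108 of the loci, 103 were higher and none lower in upf at 90 min, and 103 were higher and 1 lower in WT. The share of all genes higher or lower in that table is not given here, so these counts have no background beside them. Most of the loci were low before heat: 69 of the 107 tested passed the filter only through heated libraries. These counts therefore describe the direction and are not a separate test of it.

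ATP synthase, complex V of the respiratory chain, uses the proton gradient to make ATP, and has 5 of the described loci. ATMG01190, for its subunit 1, had 5058.5, 4393.5 and 4388.5 normalized counts in upf at 90 min, against 79.5, 65 and 136.5 at 0 min, which is 5.68 on the log2 scale (SE 0.195; adjusted p in limma 4e-23). In WT it had 3604, 3573.5 and 3294.5 at 90 min, against 84.5, 123 and 104, a change of 5.07 (adjusted p = 9.71e-22). The groups were far from overlapping in either genotype. ATMG00480, for subunit 8, had 626.5, 571.5 and 547 in upf at 90 min, against 5.5, 5.5 and 9 at 0 min. In WT it had 301, 298.5 and 333 at 90 min, against 5.5, 8 and 8. Its values equal those of the nuclear copy AT2G07707 in every lane. The remaining ATP synthase loci rose too: ATMG00410, for subunit 6-1, by 4.90 in upf and 4.27 in WT, and ATMG01090, listed as ATP synthase 9, by 5.08 and 4.42 (log2 at 90 min). ATMG01080, for subunit 9 of the membrane part, changed by 5.95 and 5.00 but with an SE of 0.748, and 1 upf library at 30 min held 882 where the other two held 67 and 58.

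Cytochrome c oxidase, complex IV, passes electrons to oxygen. ATMG00730, for its subunit 3, had 769.5, 571.5 and 555.5 in upf at 90 min, against 19, 15.5 and 33 at 0 min. WT had 608, 518 and 440 at 90 min, against 18.5, 28 and 20. The log2 changes were 4.81 in upf (adjusted p = 3.47e-18 in limma) and 4.51 in WT (adjusted p = 1.97e-17), each with an SE of 0.246. ATMG01280, described as like subunit II, changed by 6.02 in upf and 4.76 in WT. A gene list that the reference could not check also has ATMG01360 as COX1 and ATMG00160 as COX2. Each passed unheated, and they changed by 6.02 and 5.85 in upf and 5.40 and 5.12 in WT.

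Complex I takes electrons from NADH. ATMG01320, for subunit 2B, had 795.5, 636.5 and 685.5 in upf at 90 min, against 22, 17 and 28.5 at 0 min, and 919, 711 and 554 in WT, against 23.5, 31.5 and 20.5. Its log2 changes were 4.93 in upf and 4.79 in WT, with an SE of 0.28. ATMG00990, for subunit 3, was listed at 0 in 4 of the 6 unheated libraries, with 10 in the remaining upf one and 19.5 in the remaining WT one. After 90 min it had 715.5, 111 and 304.5 in upf and 304.5, 473.5 and 352.5 in WT. ATMG01275, for subunit 1A, had 275.5, 114.5 and 98.5 in upf at 90 min, against 2.5, 2.5 and 0.5, and 132, 98 and 57.5 in WT, against 0.5, 4.5 and 2.5. The groups at 0 and 90 min did not overlap for any of the 3. Reads of ATMG00990 were divided unevenly between it and its nuclear copy AT2G07751. With both summed, the libraries had 717, 470 and 522.5 in upf at 90 min, against 17.5, 19 and 20 at 0 min, and 590.5, 494.5 and 389 in WT, against 24, 32 and 32.5. The log2 change of the sum was 4.83 in upf and 4.00 in WT, against 7.03 and 7.08 for the locus alone.

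Products of the cytochrome c maturation loci fix haem to cytochrome c. ATMG00180, described as acting in cytochrome c biogenesis, had 2794, 1808 and 1869.5 in upf at 90 min, against 61, 50 and 57.5 at 0 min. In WT it had 2252, 1767 and 1876, against 63.5, 76.5 and 73. The log2 changes were 5.21 and 4.77 with an SE of 0.231. ATMG00960, an assembly protein, had 1435.5, 1271.5 and 1114.5 in upf at 90 min, against 9, 6.5 and 6, and 1351.5, 1297.5 and 1204.5 in WT, against 17, 15 and 24. The genotypes overlapped at 90 min and were apart at 0 min. ATMG00900, for cytochrome c biogenesis, is described with the genotypes below.

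Of the 4 loci that the notes on nuclear copies name for ribosomal proteins only ATMG00980, for S12, could be followed. The gene list used here, which the reference could not check, also has ATMG00560 as RPL2, ATMG00090 as RPS3 and ATMG00080 as RPL16. Each passed unheated, and at 90 min they rose by 6.29, 5.80 and 5.64 in upf and 5.95, 5.00 and 4.97 in WT (log2). ATMG00980 is given here. It had 558.5, 360 and 372.5 in upf at 90 min, against 20, 13.5 and 26 at 0 min, and 388, 418.5 and 511 in WT, against 21.5, 22 and 27.5. Its log2 changes were 4.39 in upf and 4.16 in WT (SE 0.263), and its values equal those of the nuclear copy AT2G07675 in every lane. ATMG00210, for L5, and ATMG01270, for S7, were listed at 0 in all 42 libraries, and ATMG00290, for S4, had 0 in most, with 86 in 1 WT library at 30 min and 134 in 1 at 45 min.

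Other described loci include ATMG00560, listed above as RPL2, which the notes describe only by a fold that binds nucleic acids. It had 1664.5, 1469.5 and 1267.5 in upf at 90 min, against 20.5, 12.5 and 21.5 at 0 min, and 1537, 1528.5 and 1850 in WT, against 22.5, 28.5 and 25.5. The log2 changes were 6.29 in upf and 5.95 in WT (SE 0.22). ATMG01110 carries the remains of a mitovirus gene, an RNA-dependent RNA polymerase. It had 153, 101 and 90 in upf at 90 min, against 0.5 in each unheated library, and 92, 103.5 and 96 in WT, against 2, 1.5 and 0.5. ATMG00280 carries a piece of the plastid gene for the large subunit of Rubisco and stayed low, at 9, 12 and 10.5 in upf at 90 min, against 1, 0.5 and 0, and at 21.5, 16.5 and 19.5 in WT, against 0, 0 and 1.5.

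The largest log2 change in each genotype was that of ATMG00270, which the reference does not describe. The unchecked gene list has ATMG00270 as NAD6 and ATMG00060 as NAD5C, both of complex I. ATMG00270 had 7284, 4634.5 and 4444.5 in upf at 90 min, against 3.5, 4 and 9.5 at 0 min. That is 9.75 on the log2 scale (SE 0.341). In WT it had 3365, 3078 and 2264, against 3, 4 and 4, a change of 9.27. Among loci that the reference describes the largest were 7.30 for ATMG00960 in upf and 7.08 for ATMG00990 in WT. ATMG00940, not described, had 601.5, 451 and 425 in upf, against 3, 3 and 0.5, and 612, 499 and 439 in WT, against 2, 4 and 3, changes of 7.40 and 7.03. ATMG00060 had 4103, 2649 and 2687.5 in upf, against 19.5, 20 and 22, and 2795.5, 2409.5 and 2244 in WT, against 19.5, 31.5 and 23, changes of 7.17 and 6.62. ATMG00630 had 530.5, 638.5 and 625.5 in upf, against 2.5, 3 and 2, and 844.5, 649.5 and 567 in WT, against 6.5, 7.5 and 9, changes of 7.43 and 6.30. Of the loci with the highest means, ATMG00030 had 31835.5, 24254 and 23110.5 in upf at 90 min, against 913, 799 and 1021, and 21214, 24383.5 and 25640.5 in WT, against 947, 1130 and 1044. ATMG00090 changed by 5.80 in upf and 5.00 in WT (SE 0.266).

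**Figure D3:**
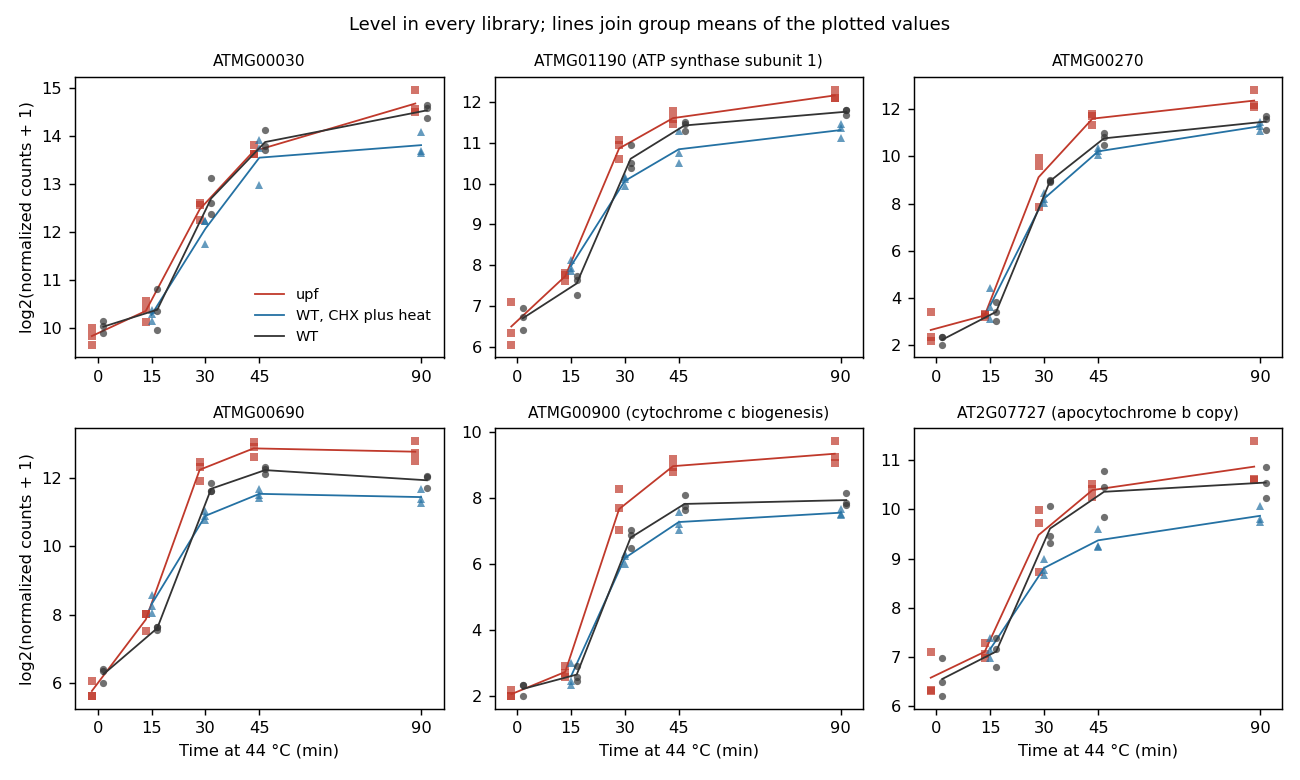
Level in each library, as log2(normalized counts + 1), against minutes at 44 °C for 5 mitochondrial loci and the nuclear copy AT2G07727, in upf, WT heated in CHX, and WT, with lines through the means of the plotted values. ATMG00270 and ATMG00030 climb further after 30 min, and the upf points of ATMG00690 and ATMG00900 lie above the WT points at 90 min.

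After 30 min the loci parted. In a comparison of 90 with 30 min, added after the values were seen, 29 of the 107 tested loci were higher in upf (0.699% of all genes) and none lower (4.89%). In WT 25 were higher (1.18%) and 1, ATMG00920, was lower (5.49%), with 9, 0 and 0 at 90 min, against 42, 35 and 16 at 30 min. Summed with its nuclear copy AT2G07678 that locus was not lower, with 850.5, 704 and 573.5 at 90 min, against 605.5, 423.5 and 347 at 30 min. In WT with CHX 32 were higher (0.641%) and none lower (7.51%). Of the loci higher in upf and those higher in WT, 22 were shared. With libraries set to equal totals 14 were called in WT. ATMG00270 was among them: it had 7284, 4634.5 and 4444.5 in upf at 90 min, against 973, 767.5 and 228.5 at 30 min, and 3365, 3078 and 2264 in WT at 90 min, against 505.5, 496.5 and 487.5. Its log2 changes from 30 min were 3.26 in upf (adjusted p = 8.55e-09 in limma) and 2.53 in WT (adjusted p = 9e-07), with 3.07 in WT with CHX. ATMG00940 did not change beyond its spread over the same interval (adjusted p = 0.671 in upf and 0.933 in WT), nor did ATMG00630 (0.969 and 0.128).

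Not every locus could be followed. The 15 that did not pass the filter are ATMG00050, ATMG00210, ATMG00220, ATMG00440, ATMG00490, ATMG00500, ATMG00550, ATMG00590, ATMG00610, ATMG00665, ATMG00910, ATMG01140, ATMG01270, ATMG01300 and ATMG01310. Their mean over the 42 libraries was at most 0.929, 4 were listed at 0 throughout, and 11 have a nuclear copy in the table. An exact 0 here can be a failed estimate, since a read that matches a locus and its copy equally can be given to either. ATMG00220, for apocytochrome b of complex III, is the clearest case. It was listed at 0 in 3 of 3 libraries of upf and of WT at both 0 and 90 min. Its nuclear copy AT2G07727, which holds the identical reading frame shown above, had 2683, 1559 and 1569.5 in upf at 90 min, against 77.5, 79 and 136.5 at 0 min. In WT the copy had 1867.5, 1481 and 1209.5, against 72.5, 124 and 88. With locus and copy summed, the log2 change was 4.30 in upf and 4.00 in WT.

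Of 46 pairs of a mitochondrial locus and a nuclear copy in the table, 13 had the locus under 1 normalized count in WT at 90 min and the copy over 50. In 2 pairs the reverse was seen. In 5 pairs the copies differed by at most 1 in all 42 libraries. Copies at loci whose mitochondrial partner was at or near 0 included AT2G07725, for ribosomal protein L5, with 2617.5, 2014.5 and 1985.5 in upf at 90 min, against 70.5, 84.5 and 103 at 0 min. AT2G07696, for S7, had 986, 731.5 and 735 in upf, against 25, 27 and 37. In WT, AT2G07725 had 2174.5, 1737 and 1503, against 68.5, 99 and 88, and AT2G07696 had 870, 758.5 and 792, against 27.5, 38.5 and 36. AT2G07698, whose sequence differs from the mitochondrial genome by the single base shown above, had 10579, 8318.5 and 7955 in upf at 90 min, against 210.5, 169 and 230.5, and 6529.5, 6927 and 7117 in WT, against 167, 192.5 and 200.5.

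Most of the copies moved together. Of 95 nuclear loci covered by mitochondrial sequence 88 were tested, and 38 of these passed the filter on the unheated libraries alone. Of the 38, 36 were called higher in upf at 90 min and 36 in WT, against 11.0 and 12.2% of all genes, and none lower, with medians of 5.23 and 4.58. The other 50 tested copies passed only through heated libraries. AT2G07706, among the 38, held a mean of 12558.5 of the copies' 14637 normalized counts in WT at 0 min. It was not called at 90 min, with changes of -0.17 in upf (adjusted p = 0.823 in limma) and 0.90 in WT (adjusted p = 0.19). The 20 nearest loci outside the insertion held 4 that were tested. None of those was called higher at 90 min in either genotype, and 1, AT2G07680, fell by 1.94 in upf and 2.43 in WT. With each mitochondrial locus summed with its nuclear copies, 116 loci were called higher in upf at 90 min and 117 in WT. The filter favours these counts, since loci can pass it through heated libraries alone. In the main fit 11.0 and 12.2% of all genes were called higher, and the share in the summed fit is not given here. Which genome a read came from was not tested, and a locus named here stands also for the sequence it shares with its copy.

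**Figure D4:**
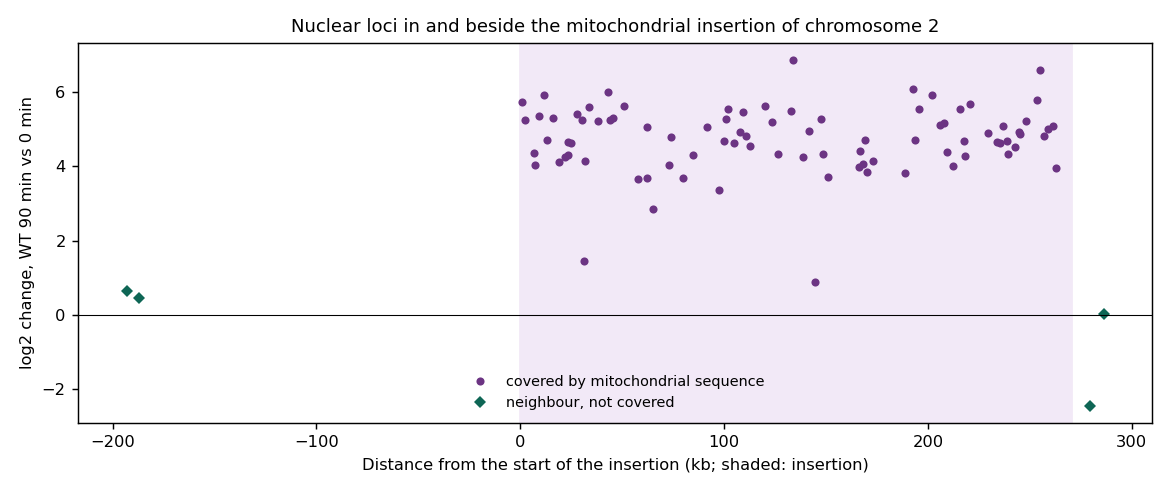
Log2 change in WT at 90 min against 0 min for nuclear loci on chromosome 2, by distance in kb from the start of the mitochondrial insertion (shaded), with loci covered by mitochondrial sequence as circles and uncovered neighbours as diamonds. Covered loci lie above 0 along the insertion, and the 4 tested neighbours lie between -2.43 and 0.65.

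CHX did not prevent the rise, and the sum came out lower with it from 30 min on. WT libraries heated in CHX held 5872.5, 5449.5 and 5001 normalized counts over the 122 loci at 15 min, and 29263, 21159 and 26892.5 at 30 min. They held 57102.5, 36607.5 and 56179.5 at 45 min and 66974.5, 54315.5 and 55342 at 90 min. At 30, 45 and 90 min all 3 lay below all 3 WT libraries heated without it. Relative to heat alone the sum was 1.10, 0.553, 0.659 and 0.659 times after 15, 30, 45 and 90 min. Relative to unheated WT, a comparison added after the values were seen that shares its control with the heat comparisons, 17, 38, 38 and 38 of the 38 loci that pass unheated were higher and none lower. Over all tested genes 9.37, 12.5, 12.4 and 12.4% were higher, and 1.20, 5.29, 8.70 and 14.3% lower.

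Most single loci did not reach a call against heat alone, which needs the fold as well as the adjusted p. By limma's adjusted p below 0.05 without the fold, in either direction, 9, 59, 59 and 26 of the 107 passed at 15, 30, 45 and 90 min. Over the mean of these times 72 did. The share of all genes at that cut-off was not counted. At 15 min 3 of 107, ATMG00140, ATMG00990 and ATMG01210, were higher (4.24% of all genes) and none lower (0.492%). ATMG00990 had 0, 27.5 and 25.5 with CHX and 0 in all 3 libraries with heat alone. Summed with AT2G07751, the groups overlapped, at 54.5, 27.5 and 56 with CHX and 55.5, 61.5 and 28.5 with heat alone. At 30 min 19 were lower (2.44%) and none higher (12.6%), and at 45 min 18 were lower (2.48%) and 1 higher (12.1%). At 90 min 3 were lower (2.77%), ATMG00200, ATMG00880 and ATMG01050, each under 50 in every library, and none was higher (13.5%). Single libraries decided these counts. The number called at 30 min was 3 without WT replicate 1, 32 without WT replicate 3, 35 without CHX replicate 1 and 7 without CHX replicate 2. At 45 min it was 4, 37, 41 and 9 without the same 4 replicates. At 90 min it was 6 without WT replicate 3, 11 without CHX replicate 1 and 1 without CHX replicate 3, and at 15 min it was 6 without WT replicate 2 and 1 without CHX replicate 2 or 3. With a pseudocount of 10 it was 0, 12, 11 and 0 at the 4 times. Over the mean of the 4 times none was called lower (1.38% of all genes), with ATMG00290 past the fold at -1.18 but not the test (adjusted p = 0.112 in limma), and 1, ATMG00370, was higher (9.35%). This locus also gave the call at 45 min, with 33, 0 and 36 in CHX and 0 in all 3 libraries with heat alone. Its call over the mean was lost without CHX replicate 2 of 15 min, replicate 1 of 30, 45 or 90 min, or replicate 3 of 45 min. Summed with its nuclear copy AT2G07739, the mean was -0.63 and was not called. The median change of the tested loci was 0.29, -0.79, -0.78 and -0.60 at the 4 times, where that of all genes was between 0.02 and 0.08.

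The lower values with CHX also depended on how libraries were scaled. With libraries set to equal totals, 3 loci were lower at 30 min and none at 45 or 90 min. As a share of all counts, mitochondrial RNA made up 0.132% ± 0.0213 in WT with CHX at 30 min, against 0.199% ± 0.0540 in WT with heat alone, with all 3 libraries of each group apart. At 45 min it made up 0.233% ± 0.0531, against 0.282% ± 0.0684, and the groups overlapped. It made up 0.289% ± 0.0425 in WT with CHX at 90 min, against 0.324% ± 0.0352 in WT with heat alone (SD, n = 3 each), and the groups overlapped again. ATMG00630 was among the loci called at 30 min, with 553.5, 273 and 418 in CHX and 1492, 915 and 811.5 in heat alone, which is -1.38 on the log2 scale (SE 0.288; adjusted p in limma 0.000238). ATMG00560, listed as RPL2 and described by a nucleic acid-binding fold, had 422.5, 311 and 438 in CHX and 1121.5, 746 and 734.5 in heat alone (-1.14, SE 0.22). ATMG01280, like subunit II of cytochrome c oxidase, had 140, 92.5 and 135, against 353, 273.5 and 265 (-1.28, SE 0.244). In all 3 the groups were apart.

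Before heat, a few loci were lower in the mutant. At 0 min 10 of the 107 tested loci were lower in upf than in WT (1.48% of all genes) and none higher (5.99%), and the median difference was -0.33. ATMG00960, the assembly protein for cytochrome c, had 9, 6.5 and 6 in upf, against 17, 15 and 24 in WT, which is -1.26 on the log2 scale (SE 0.24; adjusted p in limma 0.000189). ATMG01090, ATP synthase 9, had 42.5, 22.5 and 25 in upf, against 71.5, 71 and 57.5 in WT (-1.17, SE 0.269). With a pseudocount of 10 none of the 10 was called. The other 8, ATMG00130, ATMG00150, ATMG00630, ATMG00680, ATMG00810, ATMG00820, ATMG01060 and ATMG01220, had at most 15 in every unheated library. Over the mean of the 5 times 2 loci were lower (1.07% of all genes), ATMG01020 by 2.26 and ATMG01080 by 1.07 on the log2 scale, and both had libraries at or near 0. Neither was called with a pseudocount of 10, and 1 of the 2 was lost without any 1 of replicate 2 of upf at 0, 15 or 30 min, replicate 1 of upf at 30 min, replicate 1 of WT at 0 or 30 min and replicate 2 of WT at 15 min.

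The response to heat was larger in upf for a few loci. The difference of the 2 responses was called, always higher in upf, for 0, 1, 2 and 5 of the 107 loci after 15, 30, 45 and 90 min, against 0.0145, 0.689, 1.62 and 1.90% of all genes. None was called lower, against 0.0482, 0.371, 0.588 and 0.468%. Of the 38 loci that pass unheated, 0, 1, 1 and 2 were called higher. ATMG00820, ATMG00900 and ATMG01280 had at most 13 in every unheated library and passed only through heated ones. The 0 min part of their differences is thus a description, and their p-values carry that limit. ATMG00690, which the reference does not describe, had 8680.5, 6787 and 5841 in upf at 90 min, against 48, 48.5 and 65 at 0 min, and 3377.5, 4254.5 and 4197 in WT, against 62.5, 80.5 and 84.5. The upf values were above those of WT at 90 min and mostly below at 0 min, and the responses differed by 1.33 on the log2 scale (adjusted p = 0.000581 in limma). ATMG00900, for cytochrome c biogenesis, had 843.5, 605 and 532 in upf at 90 min, against 3, 3.5 and 3, and 284.5, 231 and 221 in WT, against 4, 3 and 4. Its responses differed by 1.56 (adjusted p = 0.00246), and its values equal those of the nuclear copy AT2G07771 in every lane. Another nuclear locus paired with it, AT2G07681, changed by 5.24 in upf and 5.62 in WT at 90 min, so its change was not larger in upf. ATMG00820 had 202, 208 and 203.5 in upf at 90 min, against 1, 0.5 and 0.5, and 161.5, 162.5 and 178.5 in WT, against 3, 2 and 4, a difference of 1.53 (adjusted p = 0.00753), and it had been lower in upf at 0 min. ATMG00960 and ATMG01280 differed by 1.24 and 1.26, with adjusted p of 0.03 and 0.0297, and were called in 5 and 7 of 12 fits that each leave out 1 library. ATMG00690, ATMG00820 and ATMG00900 were called in 12 of 12. The count at 90 min was 3 without upf replicate 2 of 0 min, upf replicate 1 of 90 min, or WT replicate 2 or 3 of 90 min, and 2 with a pseudocount of 10. At 30 min the call was ATMG00690, in 6 of 12 such fits, and no locus was called without upf replicate 2 of 0 min, upf replicate 1 or 2 of 30 min, or WT replicate 2 or 3 of 0 min. At 45 min the calls were ATMG00690 and ATMG00900, in 12 of 12.

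**Figure D5:**
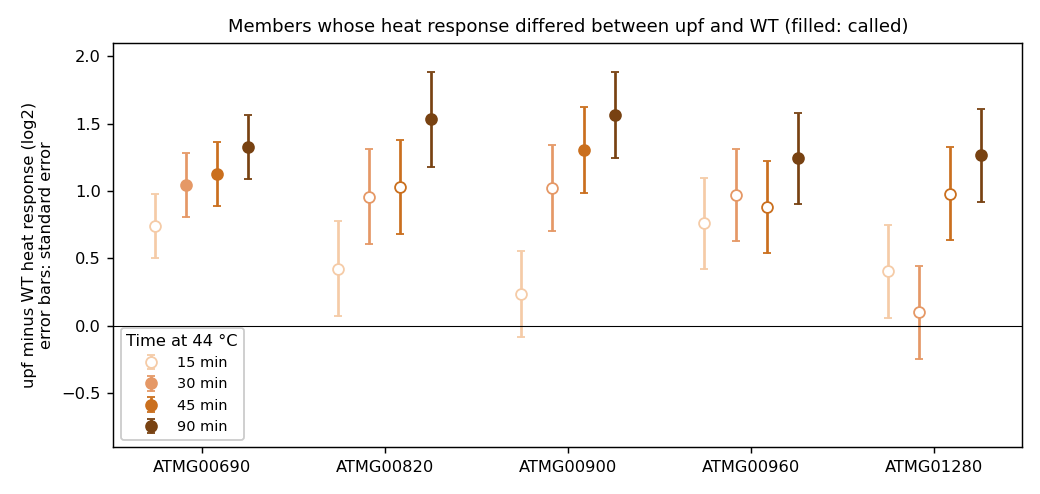
Difference of the heat responses, upf minus WT, on the log2 scale (points, with bars of 1 SE, filled where called), after 15, 30, 45 and 90 min for the 5 mitochondrial loci called at 90 min. At 90 min all 5 lie between 1.24 and 1.56. ATMG00820, ATMG00900 and ATMG01280 passed the filter only through heated libraries.

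Few nuclear genes for subunits of the respiratory chain were called with heat. In WT at 90 min, against 12.2% of all genes higher and 23.6% lower, 1 of 10 listed nuclear subunits of complex I rose, 2 of 5 of complex II, and 0 of 6, 0 of 7 and 0 of 9 of complexes III, IV and V. None of these 37 fell. The medians were 0.76, 0.67, 0.57, -0.07 and 0.70. SDH2-2, the iron-sulphur subunit of complex II, rose by 1.33 (adjusted p = 6.71e-10 in limma). Of 10 genes for alternative respiration 2 rose, and NDB2, an external NADH dehydrogenase, changed by 1.86. Of 15 genes for mitochondrial transcription and RNA processing 8 fell and none rose. RPF2 and RPF1, proteins that help to process the 5′ ends of mitochondrial RNAs, fell by 4.40 and 3.63. RPF1 had 5.67 ± 1.89 in WT at 90 min, against 78.8 ± 5.01 at 0 min (SD, n = 3 each). With CHX, 5 of these 15 were higher than with heat alone over the mean of the 4 times (9.35% of all genes), among them RPF1 by 1.57 and nMAT1, a maturase for mitochondrial introns, by 1.47. Of 11 genes of the mitochondrial stress response 7 rose, HSP23.6-MITO, a small heat shock protein of mitochondria, by 12.8 and MTHSC70-2, a mitochondrial HSP70, by 6.98. With CHX, MTHSC70-2 was lower by 1.12 than with heat alone and BCS1 was higher by 1.93. These lists were chosen with earlier results of these data known.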

How the data were processed

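Whole-seedling RNA of 42 libraries in 14 groups of 3 was sequenced as stranded mRNA on 2 lanes. The values used are a score per transcript and lane that the authors deposited as normalized counts, rounded to whole numbers, with a 75th percentile of 156 to 191 per library and lane. kallisto, sleuth and the TAIR10 build are named in the submitters' processing notes; the sources used here give neither versions nor scaling. The authors deposited tables of log2 fold changes with adjusted p-values as well, used only where named. Scores are not counts, so no count model was used.

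Lanes were averaged and transcripts summed per locus. log2(value + 1) was tested with limma 3.58.1 in R 4.3.3 with 1 mean per group over all 42 libraries, a variance trend and Benjamini-Hochberg adjustment over the 20747 genes that reached 10 in 3 or more libraries. A call needs a fold of 2 or more and an adjusted p below 0.05. Nuclear copies were found with blastn 2.17.0 (matches of at least 300 bases and 95% identity, a locus counting as covered from 90%); that mitochondrial record may differ from the one the authors used. Other steps used Python 3.11.15 (matplotlib 3.10.9, scipy 1.17.1, numpy 2.4.6, pandas 2.3.3).

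Named loci are those the reference describes and, of the others, the 3 with the highest means and up to 3 called without overlap in each of 5 comparisons; the planned ranking per kb was not made, since locus lengths were not used here. AT2G07706 was left out of the copy sums per library and of the shares with copies added. It was kept in the fit of loci summed with their copies, where it was added to ATMG00470. Members and lists were chosen with earlier results of these data known. The fits were tested on simulated data.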

Additional observations from a re-analysis of the deposited data

Results flagged for a closer look

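At 8 points the heat response of a mitochondrial locus differed between upf and WT by the test of the difference itself (limma, adjusted over all genes). At 30, 45 and 90 min 1, 2 and 5 of the 107 tested loci were called higher, against 0.689, 1.62 and 1.90% of all genes. The counts at 30 and 45 min lie near that share. For ATMG00690, which the reference does not describe, the response was larger in upf by 1.04 on the log2 scale at 30 min, 1.13 at 45 min and 1.33 at 90 min. For ATMG00900, described for cytochrome c biogenesis, it was larger by 1.302 at 45 min and 1.56 at 90 min. At 90 min it was also larger for ATMG00820 by 1.53, for ATMG00960, an assembly protein for cytochrome c, by 1.24 and for ATMG01280, like subunit II of cytochrome c oxidase, by 1.26. ATMG00820 and ATMG00960 were also called lower in upf at 0 min. ATMG00820, ATMG00900 and ATMG01280 passed the filter only through heated libraries, which limits their tests. The values of ATMG00900 cannot be told apart from those of its nuclear copy AT2G07771.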

How the results depend on the processing

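The rise at 30, 45 and 90 min kept its direction and stayed within 1.5 times of its count under all alternatives run. That count is over all 107 tested loci, of which 69 passed the filter only through heated libraries. It was near its ceiling and could hardly move, so its stability is a description and not support for the rise. Counts over the 38 loci that pass unheated are not given for these alternatives. Counts of called loci that moved further were as follows. With libraries set to equal totals, CHX against heat gave 8, 3, 0 and 0 at 15, 30, 45 and 90 min, the response difference 3 at 30 min and 8 at 90 min, and WT 90 against 30 min 14; the share of higher calls among all genes in WT at 90 min was then 13.1%, against 34.0%. Median-of-ratios scaling gave 7 for CHX at 90 min. A pseudocount of 10 gave 12 in upf and 10 in WT at 15 min, 0, 12, 11 and 0 for CHX at the 4 times and 0 for its mean, 20 for CHX at 15 min against 0 min, 0 for upf against WT at 0 min and as a mean, and 0 and 2 for the response difference at 30 and 90 min. A filter of 50 gave 0 for CHX at 90 min and for its mean. Summing copies gave 0 for the CHX mean, 1 for the upf mean and 2 for the response at 30 min. The first lane alone gave 6 for upf at 0 min, 1 for the upf mean, and 1 and 2 for the response at 45 and 90 min. The second lane alone gave 5 and 1 for CHX at 15 and 90 min, 0 for the CHX mean and 5 for the response at 30 min. Fitting only the groups compared gave 1 for CHX at 15 min and 0 and 8 for the response at 30 and 90 min. ATMG00370 reversed to -0.63 for the CHX mean with copies summed; the cause was not tested for these changes.

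With a replicate block the response difference gave 4 at 30 min and 8 at 90 min. The numbers were not taken to pair samples, since over all tested genes 91 of 273 same-numbered pairs correlated above 0.1, with a median of 0.028. Still, 22 of the 42 libraries correlated best, on average, with libraries of their own number. Replicate 1 nevertheless had the highest mitochondrial share in 12 of 12 heated groups and in 0 of the unheated ones.

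Leaving out each replicate gave 28 to 43 in upf and 23 to 36 in WT at 15 min, 1 to 6, 3 to 35, 4 to 41 and 1 to 11 for CHX at the 4 times and 0 to 1 for its mean, 8 to 13 for upf at 0 min, 1 to 2 for the upf mean, 0 to 2, 2 to 3 and 3 to 6 for the response at 30, 45 and 90 min, and 18 to 30 for WT 90 against 30 min.

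With copies other than AT2G07706 added, the mitochondrial share was 0.708% in upf at 90 min, against 0.0269% at 0 min. It was 0.474% in CHX and 0.525% in WT at 90 min, against 0.0315% in WT at 0 min. AT2G07706 alone had a mean of 12558.5 normalized counts in WT at 0 min, against 2078.5 for the other copies. At 90 min it had 23121.8 in WT, against 55572.8. A share that includes AT2G07706 would rise less in WT and is not given here. Without heat-induced chaperones in the total, the share of the mitochondrial loci alone was 0.517% in upf and 0.376% in WT at 90 min.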

Other observations

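AT2G07706, a nuclear locus within the insertion, was left out of the copy sums per library because its level was high without heat and uneven within groups. It had 29972.5, 6622.5 and 5076 normalized counts in upf at 90 min, against 12418.5, 8904 and 13039 at 0 min, and 21574.5, 21658.5 and 26132.5 in WT at 90 min, against 11940.5, 15834 and 9901 at 0 min.

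Some mitochondrial loci gave identical values in every lane: ATMG00430 and ATMG01150 with the nuclear AT2G07701, ATMG00170 with ATMG00620, ATMG00440 with ATMG01140, and ATMG00540 with the nuclear AT2G07713. Each such set carries 1 measurement.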
